A study of Homo sapiens with 6 samples.

Results

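Matrix metalloproteinases (MMPs) and the tissue inhibitors of metalloproteinases (TIMPs) were examined in A549-TIPARP cells in comparison to A549-GFP cells. The group consisted of 10 genes, 7 proteases (MMP1, MMP2, MMP7, MMP11, MMP14, MMP15 and MMP28) and 3 inhibitors (TIMP1, TIMP2 and TIMP3), out of 53826 gene entries in each table. They were chosen by gene symbol from both families, at a time when earlier results of these libraries, the difference between the lines included, were known. The differences between the lines are therefore a description, and the p-values given with them are not independent support.

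A549 is an established line from a human adenocarcinoma of the lung. The A549-TIPARP line carried a retroviral pMXs vector with the coding region of TIPARP, an enzyme that attaches mono-ADP-ribose to proteins and that the aryl hydrocarbon receptor induces. A549-GFP cells carried GFP in the same vector and served as the control. RNA-seq was performed on 3 libraries of each line, numbered by experiment. Each line is 1 stably transduced line, and whether it was a clone or a pool, or whether the libraries came from separate cultures, is not stated in the sources used here, so that p-values measure only the spread between these libraries, which may be technical. Triplets of values are given in the order of replicates 1, 2 and 3. Values are in TPM, a share of all transcripts that is corrected for transcript length, and can be compared between genes. The tables give log2 TPM with a lowest value of 0, so that every TPM below 1 appears as 1 (the floor). TPM carries no depth, and no counting error could be given.

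MMPs are zinc-dependent endopeptidases that cleave collagens, proteoglycans, growth factor precursors and cell surface proteins. They are made as inactive proenzymes, in which a propeptide cysteine blocks the zinc in the active site, and they become active once the propeptide is cut off. Most are secreted, while the membrane types stay anchored at the cell surface. TIMPs are small proteins that fill the active site of an MMP with their amino-terminal end, so that the activity around a cell depends on the proteases, on their activation and on the inhibitors. RNA levels show only the first and the last of these.

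RefSeq promoters (250 bases before to 50 bases after the gene start, GRCh38.p14) were found for 6 of the 10 genes, MMP7, MMP11, MMP14, MMP15, TIMP1 and TIMP3. Those of MMP7, MMP15 and TIMP1 are shown, because these were the secreted protease, the membrane protease and the inhibitor with the highest TPM in the group. MMP7 lies at chr11:102530698-102530997 on the minus strand, MMP15 at chr16:58025504-58025803 on the plus strand and TIMP1 at chrX:47582186-47582485 on the plus strand. Capitals mark the AP-1 letters TGAGTCA, their variant TGAGTAA, the TATA box letters TATAAA and the TCF/LEF letters CTTTGA, each searched on both strands.
MMP7: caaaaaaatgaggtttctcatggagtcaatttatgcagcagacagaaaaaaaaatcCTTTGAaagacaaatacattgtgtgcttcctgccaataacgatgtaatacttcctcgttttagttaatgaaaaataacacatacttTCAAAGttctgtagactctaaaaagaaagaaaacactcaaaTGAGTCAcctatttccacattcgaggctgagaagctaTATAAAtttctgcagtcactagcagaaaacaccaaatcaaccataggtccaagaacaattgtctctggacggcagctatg
MMP15: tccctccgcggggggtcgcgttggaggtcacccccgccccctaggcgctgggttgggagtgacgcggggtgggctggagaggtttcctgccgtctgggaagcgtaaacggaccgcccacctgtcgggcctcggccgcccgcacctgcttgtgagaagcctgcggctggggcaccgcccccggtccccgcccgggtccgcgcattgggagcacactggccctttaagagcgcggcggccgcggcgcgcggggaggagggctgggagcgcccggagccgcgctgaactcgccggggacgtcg
TIMP1: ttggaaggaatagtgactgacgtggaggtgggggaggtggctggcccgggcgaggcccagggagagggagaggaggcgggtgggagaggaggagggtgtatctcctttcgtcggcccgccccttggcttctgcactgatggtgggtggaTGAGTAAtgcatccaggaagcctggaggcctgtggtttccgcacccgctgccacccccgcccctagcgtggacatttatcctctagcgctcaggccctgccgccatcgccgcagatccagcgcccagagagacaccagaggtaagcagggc

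The MMP7 window held TGAGTCA 67 bases before the start, TATAAA 30 bases before it and CTTTGA at 194 and, on the opposite strand, at 108 bases before it. Among all 35116 promoters, 4.95% held TGAGTCA, 11.5% held TATAAA and 12.9% held CTTTGA on either strand. The TIMP1 window held the variant TGAGTAA 101 bases before the start, which 2.57% of promoters held. The MMP15 window held no match to these letters and had 5 matches to GGGCGG (SP1), which 45.0% of promoters held. GGGCGG was also found in the TIMP1 window, at 135 and 45 bases before the start, and in the MMP11, MMP14 and TIMP3 windows. AGGAAG (ETS/PEA3) was found in the MMP7 and TIMP1 windows and in 33.6% of all promoters. The G and C content was 35.7% in the MMP7 window, 65.0% in that of TIMP1 and 75.3% in that of MMP15, with a median of 58.7% over all promoters. The core of the dioxin response element, GCGTG, to which the aryl hydrocarbon receptor binds, was found in the TIMP1 and TIMP3 windows and in 36.5% of all promoters. These matches describe the letters in the windows.

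TIPARP itself, on chromosome 3, was checked first. Its TPM was 6.79, 11.4 and 3.68 in the A549-GFP line and 131, 90.5 and 123 in the A549-TIPARP line, in the direction of the labels. The difference was 4.11 on the log2 TPM scale, and on log2(TPM + 1) the limma adjusted p-value was 0.0125. With a library left out the adjusted p-value was 0.0331 without A549-GFP replicate 2 and between 0.0526 and 0.192 without any other. Without the filter on low values it was 0.0965, and with the replicate number as a block it was 0.513. The libraries of the lines were not equally close to each other. Across the 13181 genes above 2 TPM in at least 1 library (the analysed genes), libraries deviated from their line's mean by a root mean square of 0.621 on the log2 scale in A549-GFP replicate 2 and 0.185 to 0.400 in the other libraries. All 5 epithelial markers were detected in every library, with KRT8 and KRT18 at 3855 TPM or more. Within the A549-GFP line, replicate 2 was the lowest library for KRT8, KRT18 and EPCAM and the highest for KRT7 and CDH1. All 5 endothelial markers (PECAM1, CDH5, VWF, KDR and TEK) and 6 of 8 fibroblast markers were at the floor in all 6 libraries, and the summed fibroblast list, in which a gene at the floor counts as 1, was 8.09 to 8.44 TPM in A549-GFP and 8.64 to 9.56 TPM in A549-TIPARP cells. Of the leukocyte markers PTPRC and CD3E were at the floor in all libraries, while CD14, LYZ and CD68 were detected, and the list summed to 34.8 to 81.0 TPM in A549-GFP and 34.9 to 50.5 TPM in A549-TIPARP cells. The part of cells of another type in the results was not tested, and in bulk RNA fewer cells of a type and less RNA per cell cannot be told apart.

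Of the 10 genes, 7 were among the analysed genes: MMP7, MMP11, MMP14, MMP15, MMP28, TIMP1 and TIMP2. The remaining 3 did not pass 2 TPM in any library. MMP1, the interstitial collagenase, and TIMP3, the inhibitor that binds to the matrix and also blocks ADAM proteases, were at the floor in all 6 libraries. MMP2, a gelatinase that cleaves type IV collagen, was at the floor in the 3 A549-GFP libraries and in A549-TIPARP replicate 2, while A549-TIPARP replicates 1 and 3 held 1.09 and 1.44 TPM. On the opposite strand WTAPP1 overlaps MMP1, MMP2-AS1 overlaps MMP2 and SYN3 overlaps TIMP3, and unnamed annotated genes overlap MMP2 on both strands.

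By limma no analysed gene of the group had an adjusted p-value under 0.05, against 0.0152% of all analysed genes. MMP7 and MMP28, 2 of the 7, had an unadjusted p-value under 0.05, against 3.85% of all analysed genes. All A549-GFP libraries were at the floor for MMP28, so that line gave no measured spread and its p-value cannot be read as a test. MMP7, MMP11 and MMP28 were more than 2-fold higher by mean log2 TPM in A549-TIPARP cells, against 1.53% of all analysed genes, where MMP28 was compared with the floor, and none was more than 2-fold lower, against 0.432%. The mean was higher in A549-TIPARP cells for 6 of the 7, against 40.1%. MMP7, MMP15 and MMP28 had no A549-TIPARP library below an A549-GFP library, against 5.36% of genes, and the opposite held for none of the 7, against 3.54%. The median difference of the 7 genes was 0.55 on the log2 TPM scale, and that of all analysed genes was -0.07. Leaving out single libraries, the median of the 7 ranged from 0.26 to 0.83. The 0.83 was found without A549-GFP replicate 2, where the median of all analysed genes was 0.05 and 56.9% of them had a higher mean in the A549-TIPARP line. Genes at or near the floor could pass 2 TPM only through the line in which they were higher, which applies to MMP28, so these counts describe the genes that passed.

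**Figure D1:**
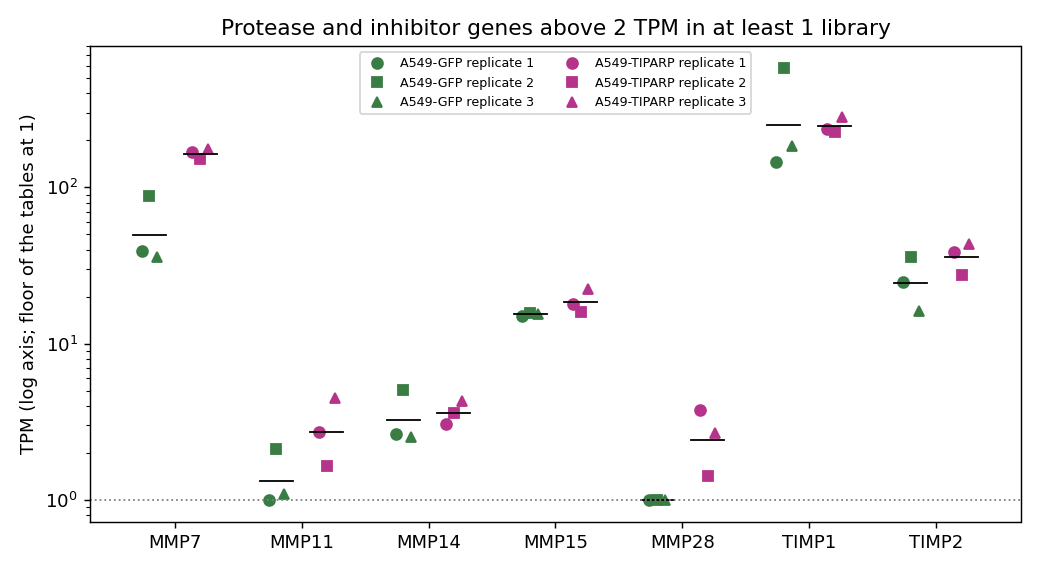
TPM of the 7 analysed protease and inhibitor genes (x-axis) in each library, on a log axis that ends at the floor of 1 TPM (dotted line). Green symbols are A549-GFP libraries, magenta symbols A549-TIPARP libraries, the shape gives the replicate, and black bars are geometric means of 3 libraries. MMP7 separated the lines, from 35.7 to 87.9 TPM against 151 to 177 TPM, and TIMP1 did not, with A549-GFP replicate 2 at 584 TPM.

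MMP7 (matrilysin, Entrez Gene ID 4316) is a small MMP without the hemopexin domain that most others carry. It is made mainly by epithelial cells, and it cleaves elastin, fibronectin, E-cadherin and other proteinases. In hg38 the gene spans 102520508 to 102530750 of chromosome 11, minus strand, with 6 exons in its canonical GENCODE 44 transcript and no overlapping gene. Its TPM was 39.4, 87.9 and 35.7 in the A549-GFP line, and 168, 151 and 177 in the A549-TIPARP line. The lowest A549-TIPARP library was above the highest A549-GFP library, and the A549-TIPARP libraries lay closer together than the A549-GFP libraries did. The mean log2 TPM was 5.64 ± 0.71 (SD, n = 3) in A549-GFP and 7.36 ± 0.12 (SD, n = 3) in A549-TIPARP cells. The difference of 1.73 on the log2 scale, or 3.31-fold, had rank 26 from the top among the analysed genes. On log2(TPM + 1) it was 1.70 (standard error 0.32), with a limma adjusted p-value of 0.327. A549-GFP replicate 2 was 2.34-fold above the mean of the other A549-GFP libraries for MMP7. Without that library the difference was 2.14 on the log2 TPM scale, or 4.39-fold, with a limma adjusted p-value of 0.0277. Without any other single library the difference was between 1.49 and 1.79, and the adjusted p-value was 0.582 or more.

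MMP28 (epilysin, Entrez Gene ID 79148) is a secreted MMP of epithelia with a furin site in its propeptide. It lies on chromosome 17 from 35756249 to 35795707 on the minus strand, and C17orf50 on the opposite strand and an unnamed annotated gene on the same strand overlap it. A549-GFP cells had it at the floor in each of 3 libraries, whereas its TPM was 3.79, 1.42 and 2.69 in the A549-TIPARP line. All 3 A549-TIPARP libraries were above the floor, at levels below 4 TPM. Set against the floor, the mean log2 TPM was 0.97 higher, under 2-fold, when A549-TIPARP replicate 1 was left out. On log2(TPM + 1) the difference was 0.81 (standard error 0.27), with a limma adjusted p-value of 0.983.

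MMP11 (stromelysin-3, Entrez Gene ID 4320) is secreted in an active form after furin has cut it inside the cell, and it is best known from the stroma of carcinomas. It lies on chromosome 22 from 23768226 to 23784316 on the plus strand. It was at the floor in A549-GFP replicate 1 and reached 2.12 and 1.09 TPM in replicates 2 and 3 of that line. In A549-TIPARP replicates 1, 2 and 3 it had 2.73, 1.66 and 4.48 TPM. The lines overlapped, because A549-GFP replicate 2 was above A549-TIPARP replicate 2. The mean log2 TPM was 0.40 ± 0.59 (SD, n = 3) and 1.45 ± 0.72 (SD, n = 3), a difference of 1.05, or 2.07-fold. On log2(TPM + 1) the difference was 0.69 (standard error 0.31), with a limma adjusted p-value of 0.994. The difference of the mean log2 TPM was under 2-fold when A549-GFP replicate 1 (0.85), A549-GFP replicate 3 (0.91) or A549-TIPARP replicate 3 (0.69) was left out.

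MMP14 and MMP15 are membrane-type MMPs that are cut by furin-like convertases on their way to the cell surface. MMP14 (Entrez Gene ID 4323, chromosome 14, 22836560 to 22849041, plus strand) cleaves fibrillar collagen and activates proMMP2 in a complex with TIMP2. Its TPM was 2.64, 5.06 and 2.54 in the A549-GFP line, and 3.08, 3.58 and 4.28 in the A549-TIPARP line. The highest value of all 6 was that of A549-GFP replicate 2, and the lines overlapped. The mean log2 TPM differed by 0.16, which was less than the SD of 0.56 of the A549-GFP libraries, and the difference was -0.02 when A549-GFP replicate 3 was left out and 0.48 when replicate 2 was left out. MMP15 (Entrez Gene ID 4324, chromosome 16, 58025754 to 58046901, plus strand) was the protease of the group with the second rank in TPM. It had 15.1, 15.8 and 15.6 TPM in the A549-GFP line, and 17.9, 16.0 and 22.2 TPM in the A549-TIPARP line. The A549-GFP libraries were nearly equal, with an SD of 0.03 on the log2 scale (n = 3), and the lowest A549-TIPARP library was just above them. The difference of the mean log2 TPM was 0.26, or 1.20-fold, with a limma adjusted p-value of 0.994.

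TIMP1 (Entrez Gene ID 7076) is a secreted inhibitor of most soluble MMPs and a weak inhibitor of the membrane types. It lies on chromosome X from 47582408 to 47586789 on the plus strand, and SYN1 and an unnamed annotated gene on the opposite strand overlap it. Its TPM was 145, 584 and 185 in the A549-GFP line, and 236, 226 and 282 in the A549-TIPARP line. A549-GFP replicate 2 was the highest of all 6 libraries and the other A549-GFP libraries were the lowest, so that the A549-TIPARP libraries lay between them. The mean log2 TPM was 7.97 ± 1.07 (SD, n = 3) in A549-GFP and 7.95 ± 0.17 (SD, n = 3) in A549-TIPARP cells, a difference of -0.02. On log2(TPM + 1) it was -0.02 (standard error 0.45), with a limma adjusted p-value of 0.998. A549-GFP replicate 2 was 3.57-fold above the mean of the other A549-GFP libraries. Without it TIMP1 was 1.51-fold higher in A549-TIPARP cells, a log2 difference of 0.59, with a limma adjusted p-value of 0.325. The sign of the difference also turned without A549-TIPARP replicate 1 (0.01), without A549-TIPARP replicate 2 (0.04) and after median-ratio rescaling (0.05).

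TIMP2 (Entrez Gene ID 7077) inhibits secreted and membrane-type MMPs, and on the cell surface it links MMP14 to proMMP2. It lies on chromosome 17 from 78852977 to 78925387 on the minus strand, and CEP295NL on the same strand and 3 unnamed annotated genes on the opposite strand overlap it. Its TPM was 24.9, 36.0 and 16.1 in the A549-GFP line, and 38.3, 27.3 and 43.3 in the A549-TIPARP line. A549-GFP replicate 2 was above A549-TIPARP replicate 2, so the lines overlapped. The mean log2 TPM was 4.61 ± 0.58 (SD, n = 3) and 5.16 ± 0.34 (SD, n = 3), a difference of 0.55, or 1.47-fold. On log2(TPM + 1) the difference was 0.53 (standard error 0.31), with a limma adjusted p-value of 0.994. The difference of the mean log2 TPM was 0.83 when A549-GFP replicate 2 was left out and 0.25 when replicate 3 was left out.

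The order of the libraries within each line was compared next. In A549-GFP cells, replicate 2 was the highest library for 6 of the 7 analysed genes, all but MMP28, against 62.5% of all analysed genes. In A549-TIPARP cells, replicate 3 was the highest for 6 of the 7, again all but MMP28, against 35.5% of all analysed genes. These shares are a description, since the genes come from the same libraries. With A549-GFP replicate 2 left out, all A549-TIPARP libraries stood above both A549-GFP libraries for 7 of the 7 genes, while 21.2% of all analysed genes did so. That library was the highest A549-GFP one for 6 of these genes, so leaving it out favoured their separation in advance. The number past 2-fold was 3 of the 7 without that library, against 2.91% of all analysed genes. MMP28 and, without that library, MMP11 were above 2 TPM in A549-TIPARP libraries alone, so they were analysed through the line in which they were higher. Without that library 1 of the 7, MMP7, had a limma adjusted p-value under 0.05, against 0.0228% of all analysed genes. With any other single library left out, none of the 7 did. Among the omissions, separation and 2-fold were counted for A549-GFP replicate 2 alone, so these counts are a description.

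**Figure D2:**
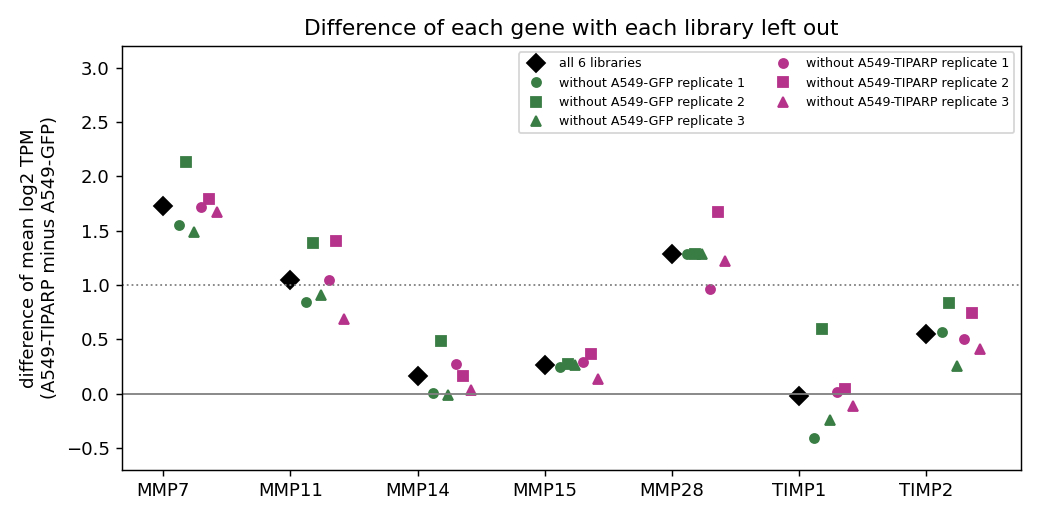
Difference of the mean log2 TPM (y-axis, A549-TIPARP minus A549-GFP) of each analysed gene with all 6 libraries (black diamonds) and with each library left out (coloured symbols). The solid line is no difference and the dotted line 2-fold. MMP7 stayed past 2-fold in every fit, from 1.49 to 2.14, whereas TIMP1 ran from -0.41 to 0.59, and MMP28 is drawn against A549-GFP libraries that are all at the floor.

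Within the group, MMP7 made up most of the protease RNA and TIMP1 most of the inhibitor RNA. MMP7 took 64.5%, 77.2% and 61.7% of the summed TPM of the 7 proteases in the A549-GFP line, and 85.0%, 85.9% and 83.0% in the A549-TIPARP line. MMP15 came next, with 13.9% to 26.9% in A549-GFP and 9.07% to 10.4% in A549-TIPARP cells. TIMP1 took from 84.9% to 94.1% of the summed TPM of the 3 inhibitors in every library, with no separation of the lines. Genes at the floor entered these sums as 1 TPM. With MMP17, MMP19 and MMP24 added to the proteases, the share of MMP7 was 38.7%, 46.3% and 39.9% in the A549-GFP line and 66.1%, 69.4% and 62.8% in the A549-TIPARP line.

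**Figure D3:**
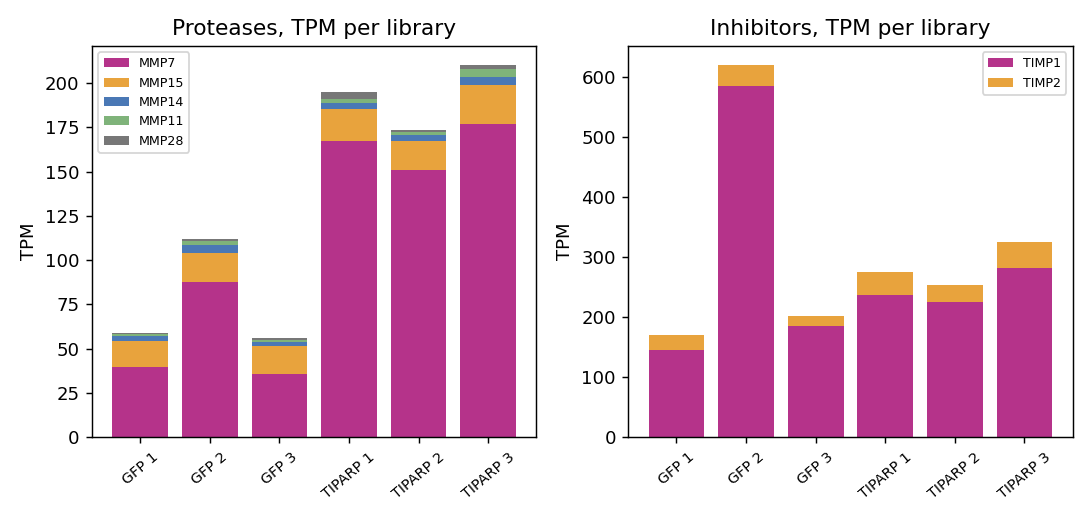
TPM of the proteases (left, MMP7, MMP15, MMP14, MMP11 and MMP28) and of the inhibitors (right, TIMP1 and TIMP2) in each library, stacked by gene, with the axes starting at 0 and on different scales. MMP1, MMP2 and TIMP3 are not drawn, and a gene at the floor counts as 1 TPM. The protease bars of the A549-TIPARP libraries are the highest, and MMP7 fills 83.0% or more of the summed protease TPM there.

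The balance of proteases and inhibitors was taken as the summed TPM of the 7 proteases divided by the summed TPM of the 3 inhibitors. The proteases summed to 61.1, 114 and 57.9 TPM and the inhibitors to 171, 621 and 202 TPM in the A549-GFP line. In A549-TIPARP replicates 1, 2 and 3 the proteases summed to 197, 176 and 213 TPM and the inhibitors to 276, 254 and 327 TPM. The ratio was 0.357, 0.183 and 0.287 in A549-GFP and 0.715, 0.692 and 0.652 in the A549-TIPARP line. Inhibitor RNA exceeded protease RNA in all 6 libraries, and every A549-TIPARP library had a higher ratio than every A549-GFP library. The mean log2 ratio was -1.91 ± 0.49 (SD, n = 3) in A549-GFP and -0.54 ± 0.07 (SD, n = 3) in A549-TIPARP cells, a difference of 1.37, or 2.58-fold. No test was made on this ratio, since its genes were chosen with the results known. With each library left out it stayed between 1.10 and 1.58 on the log2 scale.

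Most of the difference in balance was lost without MMP7. Without MMP7 the ratio was 0.127, 0.0418 and 0.110 in the A549-GFP line and 0.107, 0.0973 and 0.111 in the A549-TIPARP line. The lines overlapped, and the difference of the log2 ratio was 0.33 in place of 1.37. This rested on A549-GFP replicate 2, as the difference without both MMP7 and that library was -0.17. Without TIMP1 it was 0.87, and the lines did not overlap. With each gene given equal weight, as the mean log2 TPM of the proteases minus that of the inhibitors, the difference was 0.49 and the lines did not overlap either. This score leans on genes near the floor. MMP28 (log2 difference 1.29, analysed only through A549-TIPARP cells) and MMP11 (1.05) weigh as much in it as MMP7 (1.73). MMP1 and TIMP3 entered it at the floor in every library. The ratio of MMP7 to TIMP1 alone was 0.271, 0.150 and 0.193 in A549-GFP and 0.708, 0.669 and 0.626 in the A549-TIPARP line. It was 3.35-fold higher in A549-TIPARP cells, and the A549-GFP library with the most MMP7, replicate 2, had the lowest ratio of all.

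**Figure D4:**
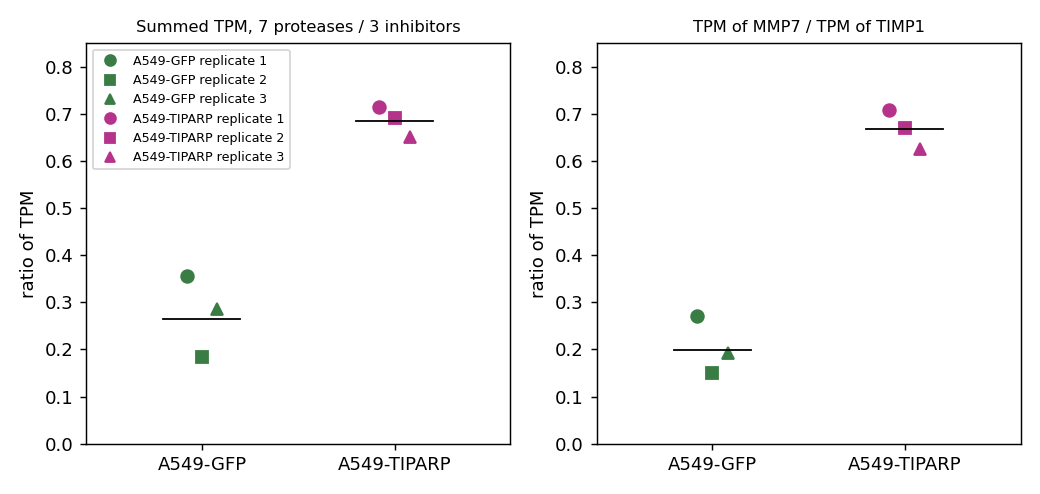
Ratio of TPM (y-axis) in each library, for the summed 7 proteases over the summed 3 inhibitors (left) and for MMP7 over TIMP1 (right). Symbols give the replicate, colours the line, and black bars the geometric mean of 3 libraries. The summed ratio was 0.183 to 0.357 in A549-GFP and 0.652 to 0.715 in A549-TIPARP libraries.

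The membrane pair did not show this pattern. The ratio of MMP14 to TIMP2 was 0.106, 0.141 and 0.158 in the A549-GFP line and 0.0803, 0.131 and 0.0987 in the A549-TIPARP line. The lines overlapped, and the mean log2 ratio was -2.91 ± 0.30 (SD, n = 3) and -3.30 ± 0.35 (SD, n = 3). The third partner, MMP2, reached at most 1.44 TPM, while TIMP2 was at 16.1 TPM or more in every library.

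Other members of both families were also measured. Of 16 further MMP genes, 13 were at the floor in all 6 libraries, among them the gelatinase MMP9, the stromelysins MMP3 and MMP10 and the collagenase MMP13. MMP24, a membrane-type MMP, had 28.4, 50.1 and 17.0 TPM in the A549-GFP line and 35.3, 21.4 and 36.1 TPM in the A549-TIPARP line, more than MMP15 in every library. MMP24 is overlapped by MMP24OS and unnamed annotated genes on the opposite strand, and how the counting treated strand is not stated in the sources used here. MMP17, which is anchored by a lipid, had 11.4, 24.7 and 13.1 TPM in A549-GFP and 19.4, 19.3 and 29.8 TPM in the A549-TIPARP line. MMP19 stayed under 3 TPM. None of the 3 separated the lines, against 5.36% of all analysed genes above and 3.54% below, and none passed 2-fold, against 1.53% higher and 0.432% lower. Their median difference was 0.53 on the log2 scale, beside -0.07 for all analysed genes. MMP19 was above 2 TPM in A549-TIPARP replicate 3 alone, and the median of MMP17 and MMP24 was 0.29.

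TIMP4, an inhibitor outside the group, had 8.76, 76.4 and 8.51 TPM in the A549-GFP line and 16.1, 14.6 and 19.5 TPM in the A549-TIPARP line. A549-GFP replicate 2 was 8.84-fold above the mean of the other A549-GFP libraries, as it was 3.57-fold above them for TIMP1. With MMP17, MMP19, MMP24 and TIMP4 added to the balance, the ratio was 0.566, 0.272 and 0.425 in A549-GFP and 0.868, 0.811 and 0.814 in the A549-TIPARP line. The lines still did not overlap, and the difference of the log2 ratio was 1.04, or 2.06-fold. Of 7 other MMP inhibitors, TIMP4 included, 4 were analysed and the A549-TIPARP mean was the higher one for 2, against 40.1% of all analysed genes. TFPI2, a serine protease inhibitor that protects the matrix, was the most abundant, at 86.8 to 142 TPM in A549-GFP and 89.5 to 103 TPM in A549-TIPARP cells. RECK, a membrane-anchored MMP inhibitor, had 2.45 to 3.16 TPM and 3.28 to 3.51 TPM. THBS1, a matrix protein that binds MMPs, had 2.16 to 3.51 TPM and 3.53 to 3.78 TPM. For RECK and THBS1, 2 of the 4, every A549-TIPARP library stood above each A549-GFP library, against 5.36% of all analysed genes, and neither passed the test (limma adjusted p-value 0.994 for both).

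Genes that activate, anchor or induce MMPs or are cut by them were counted by list. Among the analysed genes of each list, 0 of 8 activating proteases, 0 of 10 surface partners, 0 of 12 transcription factors of MMP promoters, 0 of 6 Wnt genes and 0 of 14 substrates had a limma adjusted p-value under 0.05, and none was past 2-fold in either direction. These shares can be set beside 0.0152% of all analysed genes at the adjusted p-value and 1.53% and 0.432% past 2-fold. At an unadjusted p-value under 0.05 the numbers were 1, 1, 1, 0 and 1, or 4 of 50 genes (8%), against 3.85% of all analysed genes. The median differences were -0.06, 0.17, -0.09, -0.03 and 0.21 on the log2 TPM scale, beside -0.07 for all analysed genes. COL1A1 and IGFBP5 among the substrates were above 2 TPM in A549-TIPARP replicate 3 alone, and PLG among the activating proteases in A549-GFP replicate 2 alone. Without these genes the median was 0.04 for the substrates and -0.02 for the activating proteases.

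Named by the unadjusted p-value, these genes were the following. CTSL, the lysosomal protease cathepsin L, had 229, 500 and 229 TPM in A549-GFP and 156, 171 and 221 TPM in the A549-TIPARP line. FOSL1, a subunit of AP-1, the factor that binds the letters TGAGTCA, had 28.4, 36.4 and 22.3 TPM in A549-GFP and 15.8, 20.7 and 13.5 TPM in the A549-TIPARP line. Both CTSL and FOSL1 were lower in every A549-TIPARP library than in any A549-GFP library, against 3.54% of all analysed genes. CAV1, the coat protein of caveolae, had 62.5, 52.1 and 44.5 TPM in A549-GFP and 80.3, 92.1 and 69.5 TPM in the A549-TIPARP line. It was higher in every A549-TIPARP library, against 5.36% of all analysed genes. By list, in the order of the counts above, 0, 2, 0, 0 and 1 genes separated the lines upward. Downward the numbers were 1, 0, 1, 0 and 0. The substrate among them was COL1A1. IGFBP3, an IGF-binding protein that MMP7 can cut, had 694, 1795 and 773 TPM in A549-GFP and 503, 514 and 703 TPM in the A549-TIPARP line, and the lines overlapped. In the Wnt list, AXIN2 had 5.62 to 9.07 TPM in A549-GFP and 5.55 to 7.39 TPM in A549-TIPARP cells. CTNNB1 (beta-catenin) had 93.6 to 122 TPM and 98.4 to 117 TPM. RNF43, a ubiquitin ligase that removes Wnt receptors from the cell surface, had 13.1 to 34.6 TPM and 19.4 to 24.1 TPM, and LEF1, NKD1, LGR5, NOTUM and SP5 were at the floor in all libraries.

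The genes whose levels ran most like MMP7 over the 6 libraries were sought among 4687 genes above the floor in all libraries with a range of more than 1 on the log2 TPM scale. The highest Pearson correlations of the log2 TPM were those of ORAI2 (0.997), RHBDF1 (0.995), MRAP2 (0.993), FKBP1B (0.991) and C15orf52 (0.989). They are given as a description over 6 libraries of 2 lines. ORAI2, a subunit of store-operated calcium channels, had 3.58, 5.23 and 3.16 TPM in A549-GFP and 7.24, 6.72 and 7.81 TPM in the A549-TIPARP line. RHBDF1, an inactive rhomboid protein that takes part in the shedding of growth factors by ADAM17, had 8.51, 12.5 and 8.38 TPM and 17.2, 15.5 and 18.6 TPM.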

How the data were processed

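RNA was isolated from A549-GFP and A549-TIPARP cells with TRIzol, libraries were prepared with a stranded mRNA kit, and paired-end reads were sequenced on a NovaSeq instrument. Alignment to human hg38 transcripts was done by the authors in Strand NGS, and log2 TPM values were deposited, 1 table for each library. The software version, gene annotation and treatment of multiply mapped reads are not given in the sources used here. No counts or depths were given.

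Groups and replicate numbers were taken from the sample titles. The 10 genes and all other lists were chosen with earlier results of these data known. Genes with TPM above 2 in at least 1 library (13181) were analysed. Fold changes are differences of mean deposited log2 TPM. For limma 3.58.1 (R 4.3.3) the input was log2(TPM + 1) of all 6 libraries, with trend, no block and Benjamini-Hochberg adjustment. The fit was also run on simulated data with 200 changed genes and independent normal errors. These data had no floor and no library that deviated across genes, so they do not test the fit on these libraries. Genes named from other lists were past 2-fold, had an unadjusted p-value under 0.05 or were the 2 with the highest mean TPM. Genes named outside this rule (MMP19, RECK, THBS1, COL1A1, IGFBP5, PLG, AXIN2, PLAU, PLAUR, FURIN and those at the floor, beside cell type markers) were named after their values were seen. Promoters are from RefSeq and positions from GENCODE 44. Transcript GC content, known for 98.3% of analysed genes, was corrected by lowess (span 0.3, statsmodels 0.14.6).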

Additional observations from a re-analysis of the deposited data

How the results depend on the processing

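The 7 analysed genes were refitted under up to 15 alternatives each, 104 fits in all, of which 98 kept the direction and the side of the 0.05 threshold. This count is no measure of stability. The difference was the same by construction without a pseudocount, filter or trend, with 2 TPM required in 3 libraries, and with the replicate block. For MMP28 it was also the same without any A549-GFP library, as all were at the floor. None of the 7 was under 0.05 in the main fit, so none could lose a call. MMP7 passed the threshold without A549-GFP replicate 2 (log2 difference 2.14, limma adjusted p = 0.0277), and with each library left out it ranged from 1.49 to 2.14. MMP14 ranged from -0.016 to 0.48 and TIMP1 from -0.41 to 0.59 with each library left out, and TIMP1 was 0.045 after median-ratio rescaling. The log2 difference of TIPARP remained between 3.69 and 4.50 with each library left out, with limma adjusted p-values from 0.0331 to 0.192. It was 4.11 without a filter (adjusted p = 0.0965) and with the replicate block (0.513), and 4.22 with the GC correction and the replicate block (0.596). The balance differed by 0.49 as a difference of mean log2 TPM, by 0.33 without MMP7 and by 0.87 without TIMP1, in place of 1.37. Without MMP7 it ranged from -0.17 (without A549-GFP replicate 2) to 0.63 with each library left out, an alternative chosen after seeing the data. Genes past 2-fold higher numbered 202, 78 on log2(TPM + 1), and 228 to 383 with each library left out (324 when A549-GFP replicate 1 was omitted, 383 when it was replicate 2). Genes past 2-fold lower numbered 57, 20 on log2(TPM + 1), 37 after median-ratio rescaling, and 39 to 200 with each library left out (153, 39 and 200 when A549-GFP replicate 1, 2 or 3 was omitted, 103 when it was A549-TIPARP replicate 3). Genes with an adjusted p-value under 0.05 numbered 2, and 1 without a filter, with the replicate block or with the GC correction and the replicate block; with each library left out they numbered 1 to 3 (1 without A549-GFP replicate 3 and without A549-TIPARP replicate 1 or 2). Without a filter, genes above the floor in at least 1 library were kept. Deviations of same-numbered libraries correlated at r = 0.415, -0.486 and -0.358, and did not bear out a pairing by number. With the block the limma adjusted p-value of MMP7 was 0.999, and 0.8945 with the GC correction as well. None of the 7 genes was called with or without the block, so it had no call to remove. The fold on log2(TPM + 1) and the balance with MMP17, MMP19, MMP24 and TIMP4 were chosen after seeing the data. Genes below about 2 TPM, as MMP2, MMP11 and MMP28, are limited by the floor, and the depth is unknown. The cause of these changes was not tested.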

Other observations

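A549-GFP replicate 2 was the highest A549-GFP library for 62.5% of all analysed genes. The lists of other genes lay on both sides of that share, with 12 of 12 transcription factors, 9 of 10 surface partners, 10 of 14 substrates, 6 of 8 activating proteases, 2 of 4 other inhibitors, 2 of 3 further MMPs and 2 of 6 Wnt genes. PLAU, PLAUR and FURIN were picked with their values in view. PLAU (urokinase) had 39.6, 116 and 27.5 TPM in the A549-GFP line and 48.4, 43.5 and 57.5 TPM in the A549-TIPARP line. Its receptor PLAUR had 28.3, 111 and 27.6 TPM and 31.2, 30.4 and 40.8 TPM. FURIN, the convertase that cuts the propeptide of MMP11, MMP14, MMP15 and MMP28, had 22.2, 98.6 and 19.7 TPM and 43.7, 28.3 and 73.4 TPM. All 3 genes overlapped between the lines.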
